A study of Mus musculus with 8 samples.

Results

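The 9 genes described here encode 6 apolipoproteins (Apoe, Apoa1, Apoa2, Apob, Apoc1 and Apom) and 3 lipoprotein receptors (Lrp1, Lrp2 and Vldlr), out of 48526 genes in the count table. They were selected by measured values of these same libraries, since Apoe read higher on the right than on the left in all 4 embryos, and the other 8 were added by name as its relatives and receptors. The left to right values of Apoe are therefore a description and carry no test. The libraries were made from the microdissected heart field of wild-type C57bl6/J male mouse embryos at stage E8.5f, each bisected at the midline, so that 4 embryos (L29-3, L43-5, L46-8 and L49-3) gave 4 left and 4 right libraries. No treatment, transgene or mutation was involved, and the comparison asked which genes differ between the sides of the tissue that feeds cells into the heart tube. Each library is a piece of tissue from 1 animal, so a lower value may mean fewer cells of a type or less RNA per cell, and the libraries cannot tell these apart.

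Apolipoproteins are the protein part of lipoprotein particles, which carry cholesterol, triglycerides and fat-soluble vitamins between cells. Apob is the structural protein of large triglyceride-rich particles, Apoa1 and Apoa2 are the main proteins of high-density lipoprotein, Apoe is the ligand that lets receptors of the low-density lipoprotein receptor family take particles up, Apoc1 modulates that uptake and Apom carries sphingosine 1-phosphate. Lrp1 (a broad endocytic and signalling receptor), Lrp2 (megalin, an endocytic receptor of embryonic epithelia) and Vldlr (a receptor for Apoe-bearing particles and for Reelin) belong to that family. Before the liver forms, the visceral endoderm of the yolk sac is a main source of Apob-containing particles in the mouse embryo.

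The deposited values were counts of reads per gene. The total count was between 1147446 and 3520753 per library, and the library pair of L49-3 was the shallowest. A count of 0 allows up to 3 counts, which is 0.852 to 2.62 CPM (counts scaled to library size) depending on the library, and such limits cover counting error only. Transcripts of cardiac cells were present, as all 11 cardiomyocyte markers and all 11 second heart field markers passed the filter for low counts. The filter asked for 20 or more normalized counts (scaled by DESeq2 size factors) in 4 or more libraries. According to the methods the heart was removed at dissection, and whether some of it remained was not tested. The cardiomyocyte markers summed to 926 to 7137 normalized counts on the left and 2515 to 6619 on the right, and the extremes of the left were L49-3 and L29-3.

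Per length, Apoe was the most abundant of the 9 genes. Its level was 130 ± 21.3 CPM per kilobase of exons (SD over 8 libraries), with a range of 97.5 to 157 that lay above that of every other member. Apoa1 followed at 37.4 ± 29.5, Lrp1 at 23.8 ± 3.51, Apom at 11.1 ± 8.07, Lrp2 at 8.18 ± 0.985, Apob at 7.86 ± 5.68 and Vldlr at 3.72 ± 1.17, all in CPM per kilobase. Apoc1, at 2.62 ± 2.23, and Apoa2, at 1.93 ± 1.64 on the same scale, came last. Of the 8 pairs of neighbours in this order, only Apoe and Apoa1 had ranges that did not overlap, and Lrp1 exceeded Apom in 8 of 8 libraries although their ranges touched through the variable Apom. With the longest transcript as the length in place of all merged exons, the Apoe level was 197 CPM per kilobase and the order was the same.

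**Figure D1:**
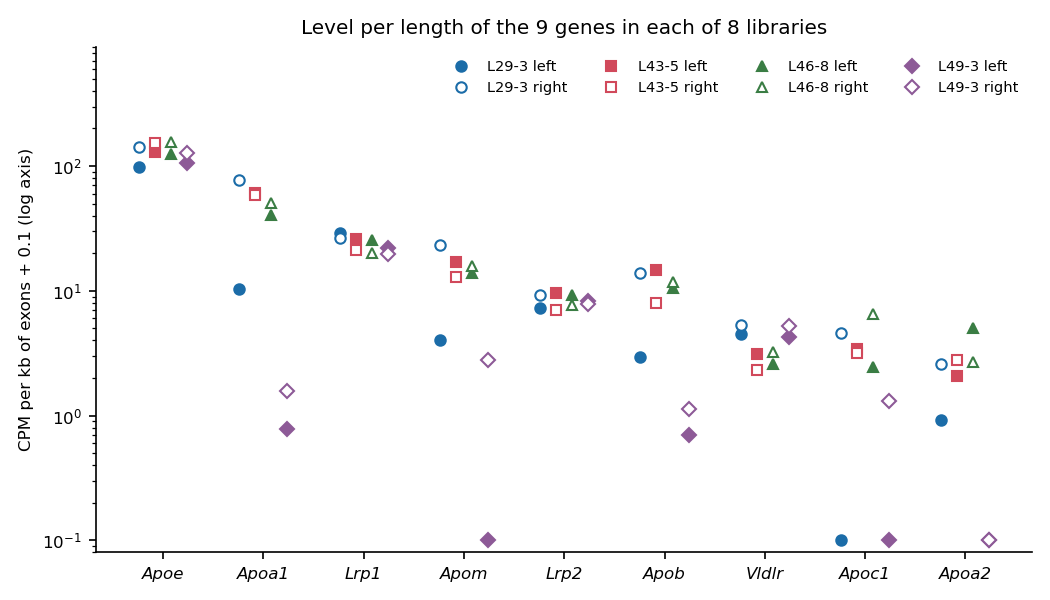
Level per length of the 9 genes in the 8 libraries, as CPM per kilobase of merged exons with 0.1 added, on a log axis. Each point is 1 library, filled for left and open for right, with colour and shape for the embryo. Apoe lies between 97.5 and 157 CPM per kilobase, and the points of L49-3 are the lowest for Apoa1, Apom and Apob.

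Apoe (ENSMUSG00000002985) lies on the minus strand of chromosome 7 at chr7:19696109-19699188 of GRCm38, next to Apoc1. Values per library are listed here and below in the embryo order L29-3, L43-5, L46-8, L49-3, as normalized counts. The left libraries held 384, 513, 495 and 415 for Apoe and the right libraries 567, 609, 618 and 499. The right side was the higher one in 4 of 4 embryos, while the highest left value, in L43-5, exceeded the lowest right value, in L49-3, so the groups overlapped and the pairing by embryo separates them. The left mean was 452 ± 62.0 and the right mean 573 ± 54.4 normalized counts (SD, n = 4). The fitted log2 fold change, left minus right, was -0.35 with an SE of 0.0729, or 1.27-fold higher on the right. Within embryos the log2 ratio was -0.55, -0.25, -0.33 and -0.27. The spread of Apoe across embryos was 1.24-fold (95% exact interval 1.13 to 1.36) between L43-5 and L49-3. That is near the median of all tested genes, 1.24 with 0.5 CPM added.

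The bases just before the annotated start are shown for Apoe (250 bases), Apoa1 (200) and Apob (221), because Apoa1 and Apob varied widely over the libraries and were high and low in the same ones, whereas Apoe varied less than they did. The sequences are from RefSeq on GRCm38.p6, read 5′ to 3′ on the strand of the gene, at chr7:19699189-19699438 (minus strand) for Apoe, chr9:46228380-46228579 (plus strand) for Apoa1 and chr12:7977427-7977647 (plus strand) for Apob. Capitals mark TATAAA.
Apoe: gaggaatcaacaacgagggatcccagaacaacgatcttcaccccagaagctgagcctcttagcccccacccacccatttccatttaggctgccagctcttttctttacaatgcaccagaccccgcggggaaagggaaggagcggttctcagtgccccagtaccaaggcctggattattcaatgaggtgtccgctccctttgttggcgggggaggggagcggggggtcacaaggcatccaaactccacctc
Apoa1: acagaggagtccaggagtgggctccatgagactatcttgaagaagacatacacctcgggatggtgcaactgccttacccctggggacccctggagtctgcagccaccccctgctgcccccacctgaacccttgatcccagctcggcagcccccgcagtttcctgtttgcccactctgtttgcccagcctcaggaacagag
Apob: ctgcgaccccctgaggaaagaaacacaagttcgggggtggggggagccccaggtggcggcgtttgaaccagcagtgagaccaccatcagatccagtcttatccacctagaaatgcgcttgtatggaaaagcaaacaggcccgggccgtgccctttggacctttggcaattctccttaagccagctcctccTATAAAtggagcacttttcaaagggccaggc
The letters TATAAA were in 13.6% of 32851 promoter windows of 300 bases, searched on both strands, and stood 191 bases into the Apob sequence. They were absent from the Apoe and Apoa1 sequences shown, but Apoe has 3 windows in the table and another of these holds them, as does the window of Apoa2. AGGTCA, the half-site of many nuclear receptors, was in 16.3% of windows, and CAAAGTCC, a form of the HNF4 motif, in 1.42%, and neither was in the 3 sequences. Of the 9 genes, 8 had a window in the RefSeq table, and Apoc1 had none. These matches describe letters and say nothing about binding.

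The other apolipoproteins did not share an even left to right pattern. Apoa1 (chr9:46228580-46230466, plus strand) held 23.5, 138, 92.8 and 1.55 normalized counts on the left side, with 176, 134, 115 and 3.32 opposite. The left library of L29-3 was low against its own right library, both libraries of L49-3 were near 0 with 3 reads in all, and the remaining 4 libraries were close to one another. The log2 fold change of Apoa1 was -0.81 with an SE of 0.366 (edgeR adjusted p = 0.987), 64.0 ± 62.9 on the left against 107 ± 73.7 on the right (SD, n = 4). Of the 6 other members that were tested, 1, Apoa1, passed the threshold of the study (a fold of 1.2 or more and an unadjusted p no higher than 0.05), which 3.05% of all 9744 tested genes passed. The log2 ratio furthest from 0 was that of L29-3, -2.85. Without this embryo the log2 fold change was -0.12 and the call was lost, as it was without L49-3 (-0.79). DESeq2, limma-voom and both scalings by library size did not make it either.

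Apob (chr12:7977648-8016835, plus strand) held 73.8, 376, 269 and 15.5 normalized counts on the left side, with 358, 204, 298 and 26.6 opposite. The sides overlapped almost fully and the embryos went both ways. Its log2 fold change was -0.35 with an SE of 0.374 (edgeR adjusted p = 0.987), and without L29-3 it turned to 0.32. Apom (chr17:35128997-35132050, minus strand) held 7.30, 32.0, 26.0 and 0 on the left side, with 43.3, 24.01, 29.2 and 4.99 opposite. It was low in the same 3 libraries as Apob, with a log2 fold change of -0.60 with an SE of 0.445 (edgeR adjusted p = 0.987) and 0.02 without L29-3. Without L43-5, both Apob (-1.08) and Apom (-1.28) passed the threshold of the study.

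Apoc1 (chr7:19689481-19692660, minus strand) and Apoa2 (chr1:171225054-171226379, plus strand) were too low for the filter, so 7 of the 9 genes were tested. Apoc1 had 32 reads over the 8 libraries, namely 0, 7, 4 and 0 from left libraries and 5, 8, 7 and 1 from right libraries. After scaling to depth, the right side was the higher one in 3 of 4 embryos, all but L43-5. Apoa2 had 19 reads, namely 1, 3, 6 and 0 from left libraries and 2, 5, 2 and 0 from right libraries. A side difference was not detectable for this pair at this depth, and 4 embryos are too few for an exact permutation test to pass 0.05.

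**Figure D2:**
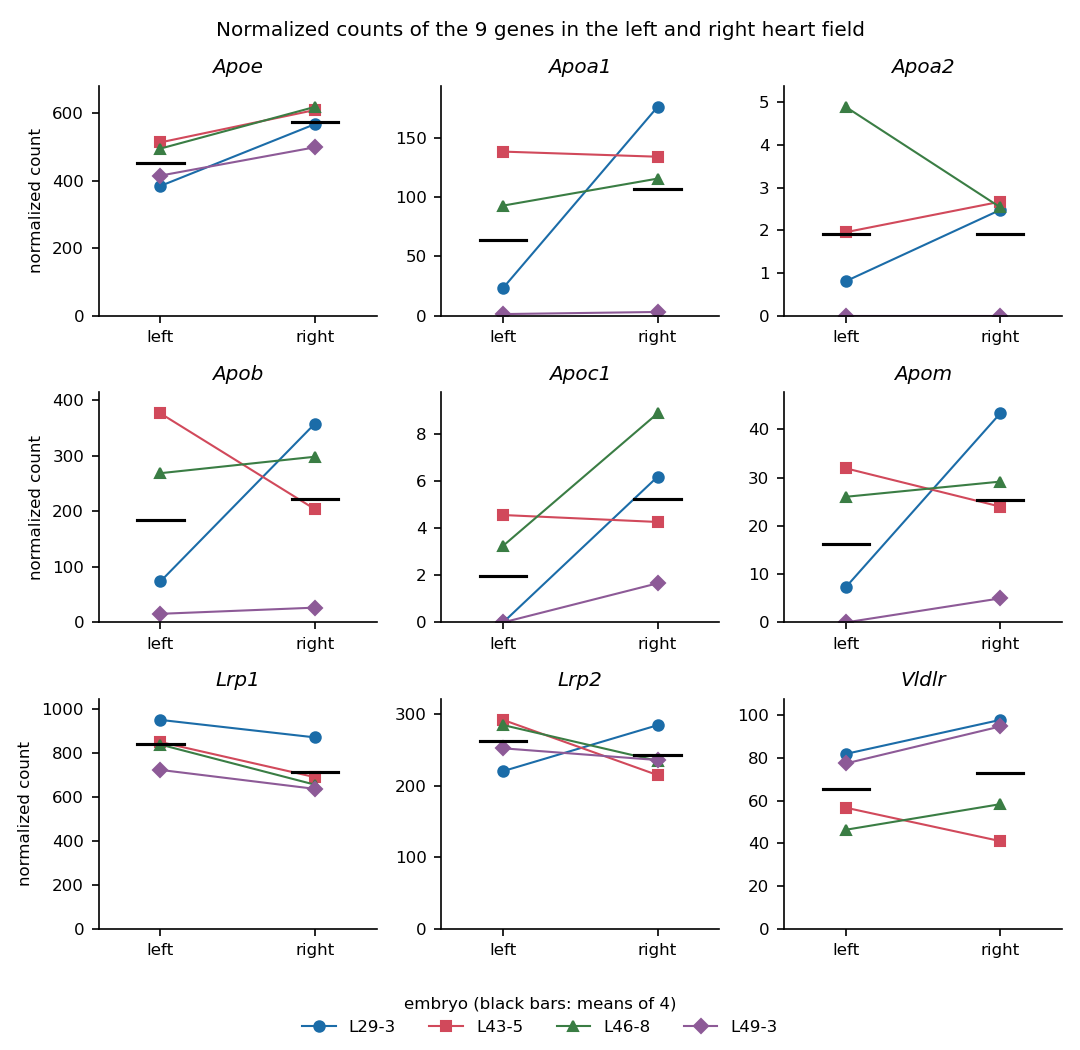
Normalized count of each of the 9 genes on the left and right, with a line joining the libraries of each embryo and black bars at the mean of 4. The vertical axes start at 0 and differ between panels. The right end of every line is the higher one for Apoe and the lower one for Lrp1, while Apoa1, Apob and Apom are set by the left library of L29-3 and by L49-3.

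Among the receptors, only Lrp1 had the same direction in each embryo. It was opposite to that of its ligand Apoe, whose direction was fixed by the choice of the list. Lrp1 (chr10:127538161-127621148, minus strand) held 953, 851, 840 and 725 normalized counts on the left side, with 873, 692, 657 and 638 opposite. The left side was higher in 4 of 4 embryos, the within-embryo log2 ratios were 0.13, 0.30, 0.34 and 0.17 and the groups overlapped. The left mean was 842 ± 93.3 and the right mean 715 ± 108 (SD, n = 4), with a log2 fold change of 0.24 and an SE of 0.0648 (edgeR adjusted p = 0.987). This is 1.18-fold, under the fold of 1.2 that the study asked for, and without L29-3 the log2 fold change was 0.28, which passed it. Of these 6 members, 1, Lrp1, had the same direction in 4 of 4 embryos, as 12.4% of all tested genes had.

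Lrp2 (chr2:69424340-69586065, minus strand) held 221, 292, 285 and 252 normalized counts on the left side, with 285, 215, 235 and 236 opposite. The left side was higher in all embryos but L29-3. Its log2 fold change was 0.12 with an SE of 0.118 (edgeR adjusted p = 0.987), 0.29 without L29-3, which passed the threshold, and -0.01 without L43-5. Vldlr (chr19:27216484-27254231, plus strand) held 81.9, 56.7, 46.4 and 77.4 on the left side, with 97.8, 41.1, 58.4 and 94.7 opposite. The right side was higher in all embryos but L43-5, and the log2 fold change was -0.08 with an SE of 0.17 (edgeR adjusted p = 0.987). The plot of ratios by embryo shows the narrow spread of Apoe and Lrp1 beside the wide spread of Apoa1, Apob, Apoc1 and Apom.

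**Figure D3:**
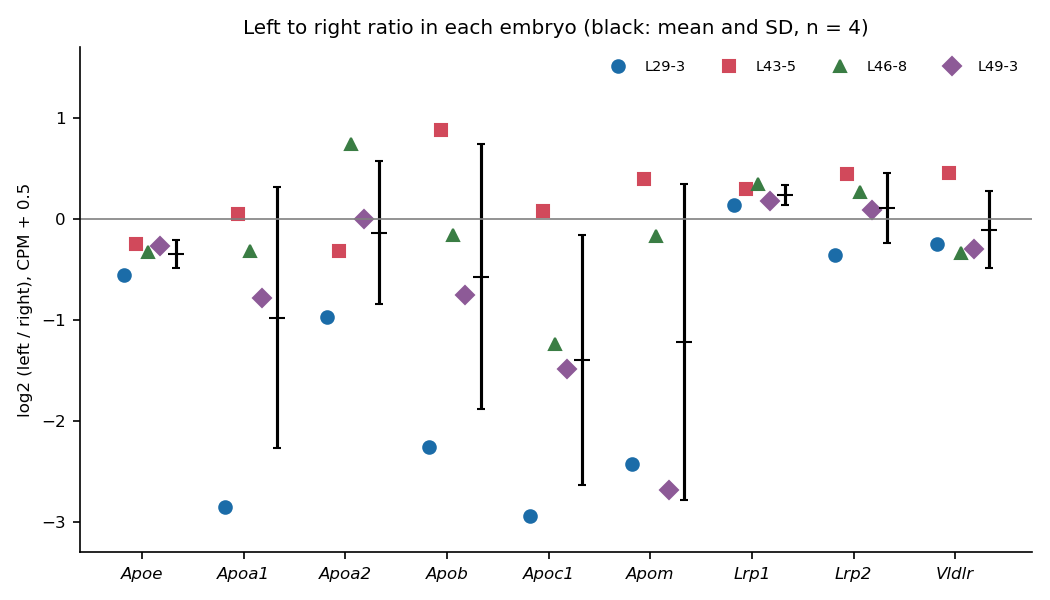
Log2 ratio of left to right in each embryo for the 9 genes, from CPM with 0.5 added, with the mean and SD of 4 embryos in black. Apoe lies between -0.55 and -0.25 and Lrp1 between 0.13 and 0.34, whereas Apoa1, Apob, Apoc1 and Apom reach below -2.2 in L29-3.

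The members were then compared between embryos, a measure that did not choose them, with both libraries of an embryo standing as its replicates. Apoa1 and Apom were nearly missing from L49-3, with 3 reads each, and Apob was low there, with 26 reads. Pooled over both sides, Apoa1 was at 45.4, 73.4, 54.9 and 1.30 CPM, the last from 3 reads, and its highest embryo was 56.3-fold above its lowest (95% exact interval 19.2 to 274). Apob was at 101, 152, 151 and 11.3 CPM by embryo, a 13.5-fold range (9.13 to 20.7), and Apom at 11.7, 14.9, 14.7 and 1.30 CPM, an 11.4-fold range (3.80 to 56.5). With 0.5 CPM added, the ratio of highest to lowest embryo was 41.0 for Apoa1, 12.9 for Apob and 8.54 for Apom, above those of 99.96%, 99.92% and 99.87% of the 9744 tested genes, whose median on the same scale was 1.24.

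Apoe and the 3 receptors were not low in this way in L49-3. Pooled Lrp2 was at 133, 135, 143 and 132 CPM in the same order of embryos, a ratio of 1.08 between the highest and lowest (0.939 to 1.25), and Apoe was at 247, 305, 293 and 247 CPM. Lrp1 was at 499, 412, 415 and 370 CPM, a 1.35-fold range. Vldlr had another pattern, with 47.7 and 46.4 CPM in L29-3 and L49-3 against 26.0 and 27.6 in L43-5 and L46-8, a 1.84-fold range (1.48 to 2.29). Apoa2, with no read in L49-3, was at least 1.65-fold higher in L46-8. Apoc1 had 1 read in L49-3 against 11 in L46-8, a ratio of 6.79 (0.987 to 292).

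By edgeR, 0 of the 7 tested members differed between embryos at an adjusted p under 0.05, against 0.174% of all tested genes, and the lowest adjusted p was 0.108, for Apoa1. At an unadjusted p under 0.05 it was 6 of 7, all but Lrp2, against 9.99% of all tested genes. DESeq2 called Apoa1 with an adjusted p of 0.0121, where it called 0.493% of all tested genes. Without L29-3, whose sides differ most in Apoa1, edgeR called Apoa1 (adjusted p = 0.000188) and Apob (adjusted p = 0.00107), along with 0.469% of all tested genes. Without L49-3 the adjusted p of edgeR was 0.985 for both.

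Of the 14 yolk sac and visceral endoderm markers 7 were tested, and 5 of these, Afp, Ttr, Rbp4, Ctsh and Vil1, had a mean in L49-3 under 0.5 of that in each other embryo, as 1.04% of all tested genes had. This list and the others were chosen with earlier results of these data known, so such counts are a description and carry no test. The other pair, Gpx3 and Spink1, was lowest in L49-3 but less so, with Gpx3 still at 235 and 304. Among the untested markers Trf and Fgg, with few reads, were not at their lowest there. In the left library of L29-3, 4 of the 7 (Afp, Rbp4, Ctsh and Vil1) were under 0.5 of its right library and of every library of L43-5 and L46-8, as 0.144% of all tested genes were, and so were Apoa1, Apob and Apom, the genes that prompted this count. Afp (the fetal serum protein) held 21.9, 88.0, 59.4 and 0 on the left side, with 73.0, 52.3, 50.8 and 0 opposite. Ttr, the thyroxine and retinol carrier, and Rbp4, the retinol-binding protein, were between 3.10 and 3.32 normalized counts in both libraries of L49-3, against 22.7 to 186 elsewhere. Without Gpx3, the most abundant of them, the other 13 markers summed to 177, 497, 379 and 35.6 on the left side, with 587, 376, 359 and 54.8 opposite. With Gpx3 the sum was 271 to 987 on the left and 359 to 1076 on the right, and 5 to 6 of the 14 were at 0 in the libraries of L49-3. Other tissues differed in L49-3 too. The mean sum of its libraries was 1942 for the cardiomyocyte markers, against 3583 to 6878 in the other embryos, and 1094 for the neural tube markers, against 614 to 659. Over all the lists edgeR called a pair of genes between embryos, the heart transcription factor Tbx5 (mean 20.03 in L49-3 against 115 to 141, adjusted p = 0.0201) and the myosin heavy chain Myh6 (137 against 625 to 1528, adjusted p = 0.047). Foregut endoderm markers summed to 696 to 739 on the left and 617 to 777 on the right. The part of the yolk sac and cardiac markers in the left to right and embryo differences of Apoa1, Apob and Apom was not tested.

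Some other genes of the pathway were also low in L49-3. By the same count, which 1.04% of all tested genes met, it was 2 of 25 tested receptors and adaptors (Cubn and Reln). It was 1 of 12 assembly and remodelling genes (Mttp), 0 of 25 in cholesterol synthesis and 0 of 6 in efflux and transport. In the list of other apolipoproteins it was 0 of 3 (Clu, Apool and Pon2). The count leaves out genes that failed the filter, among them Apoa4 and Amn. A few genes are given here that were chosen after their values were seen. Apoa4, another apolipoprotein of the Apoa1 cluster, was at 0 in both libraries of L49-3 and at 3.24 to 25.4 elsewhere. Mttp, the transfer protein that loads lipid onto Apob, was at 17.0 and 26.6 in L49-3 against 36.5 to 95.3 elsewhere. Cubn, an endocytic receptor that binds Apoa1, was at 3.10 and 0 in L49-3, and Amn, its membrane partner, was at 0 in both libraries of that embryo. In L29-3, Cubn had 16.2 in the left library against 256 opposite, the same low left library as for Apoa1 and Apob. Lrp2, which works with Cubn in absorptive epithelia, was at 252 and 236 in L49-3, within its range elsewhere.

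**Figure D4:**
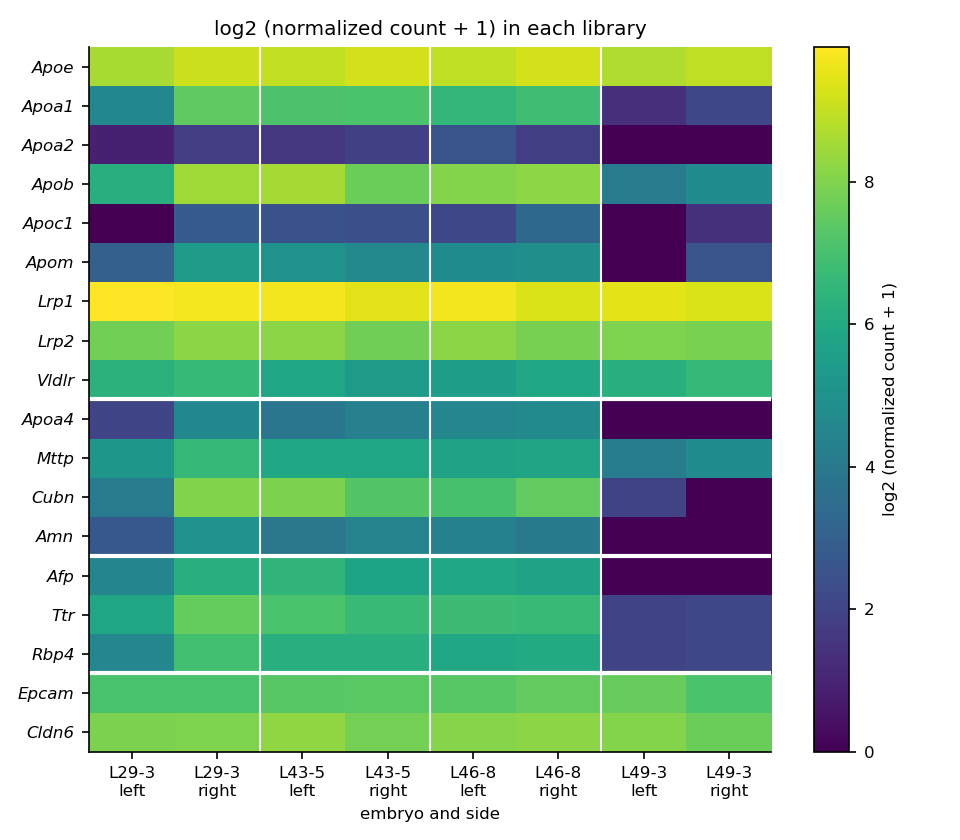
Log2 of the normalized count plus 1 in each library, for the 9 members (top block), for Apoa4, Mttp, Cubn and Amn, for the yolk sac markers Afp, Ttr and Rbp4, and for the foregut markers Epcam and Cldn6. For Apoa1, Apob and Apom and for the genes of the middle blocks, the columns of L49-3 are darker than the rest of the row, and so, to a lesser degree, is the left column of L29-3. The rows of Apoe, Lrp1, Lrp2, Epcam and Cldn6 are nearly even. The markers shown are a part of their lists, named after their values were seen. Over the lists, 5 of 7 tested yolk sac markers and 0 of 9 tested foregut markers had a mean in L49-3 under 0.5 of that in each other embryo. Of the 9 foregut markers, 3 were lowest in L49-3.

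The rest of the pathway showed few side differences. Of 31 other receptors and adaptors, 25 were tested and 1 passed the threshold of the study, the scavenger receptor Stab1, higher on the left in 4 of 4 embryos (log2 fold change 0.32, SE 0.133). Dab2 and Snx17, the endocytic adaptors with the highest level per length, had log2 fold changes of -0.06 and 0.01. Of 15 efflux and transport genes, 6 were tested and 1 passed, the oxysterol-binding protein Osbp, higher on the left in 4 of 4 embryos (log2 fold change 0.32, SE 0.117). Npc2, which moves cholesterol out of lysosomes, and Nr1h2, an oxysterol receptor, had values of -0.07 and -0.03 on the same scale. Both counts stand against 3.05% of all tested genes.

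None of the other lists of the pathway had a gene past that threshold. In cholesterol synthesis and its control, 25 of 27 genes were tested, their log2 fold changes ran from -0.36 to 0.41 around a median of 0.06, and the enzyme Hmgcs1 was at -0.02. In lipoprotein assembly and remodelling, 12 of 23 were tested, with a median of -0.09, and P4hb, the subunit shared with the transfer protein, and Sar1b, a secretory GTPase, were at 0.08 and -0.10. The list of 18 other apolipoproteins also holds genes that only share the name or are associated with lipoproteins, such as Apool and Pon2. Of the 18, 3 were tested, Clu at 0.07, Apool at 0.25 and Pon2 at -0.32, and 4, Apoc2, Apof, Apoh and Saa4, had no read in any library. The median over all 9744 tested genes was 0.00 on the same scale, while the 4 tested apolipoproteins among the members, Apoe included, had a median of -0.48 and the 3 receptors one of 0.12, a description of genes chosen with these results in view. Without L29-3 the median of the 4 was -0.05, with values from -0.28 to 0.32.

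**Figure D5:**
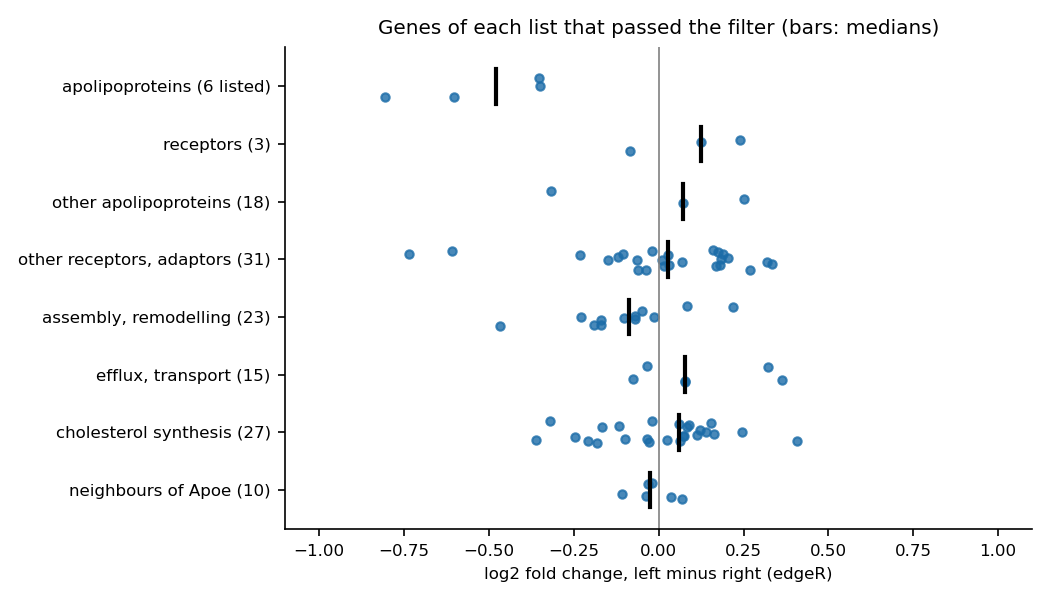
Log2 fold change, left minus right, of the genes of each list that passed the filter, with the number of genes listed in brackets and a bar at the median. Points left of 0 are higher on the right. The 4 apolipoproteins, among them Apoe, which was chosen by this contrast, lie between -0.81 and -0.35 here, and without L29-3 they lie on both sides of 0, as the other lists do.

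The tested genes around Apoe on chromosome 7 had smaller values. Apoc1, next to Apoe, is not among them, since it failed the filter. Its mean log2 ratio of left to right was -1.4, from 32 reads, with the right side higher in 3 of 4 embryos. Of 10 other neighbours, 6 were tested, with log2 fold changes from -0.11 to 0.07 and a median of -0.02, against -0.35 for Apoe. The threshold was passed by 0 of the 6. The value was negative, as for Apoe, in 4 of the 6, Tomm40 (-0.11), Clasrp (-0.04), Clptm1 (-0.03) and Gemin7 (-0.02). It was positive for Nectin2, a cell adhesion protein (0.07), and Bcam, a laminin receptor (0.04).

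Over the 8 libraries, the genes most like Apoe by Pearson correlation of log2 CPM were Agpat1 (r = 0.976), Atp6v0b (r = 0.971), Cul5 (r = 0.941), Pimreg (r = 0.922) and Gpkow (r = 0.918). These points share libraries, depth and embryos, and the values are a description. Each of the 5 was higher on the right in 4 of 4 embryos, which likeness to Apoe favours, with log2 fold changes from -0.31 (Atp6v0b) to -0.09 (Agpat1). The genes most like Apoa1, looked up after its pattern was seen, were Rbp4 (r = 0.995), Ctsc (r = 0.99), Apob (r = 0.987), Afp (r = 0.98) and Ctsh (r = 0.977). Apoa1, Apob and Apom correlated with one another at r = 0.96 to 0.987, while Apoe correlated with these 3 at r = 0.64 to 0.72 and with Lrp1 at r = -0.47. Lrp1 correlated with the 3 at r = 0.23 to 0.32.

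Among the lists of tissue markers, only that of the neural tube had genes past the threshold between the sides. Of its 8 tested genes 2 did, against 3.05% of all tested genes, the transcription factors Sox1 (log2 fold change -0.98) and Pax6 (-0.83). Both were lower on the left in 3 of 4 embryos, all but L29-3 (edgeR adjusted p = 0.987 for each). The Sox1 log2 ratio was furthest from 0 in L46-8, at -3.50. The 13 neural markers summed to 413 to 1073 on the left and 570 to 1115 on the right, with log2 ratios of 0.39, -0.98, -0.61 and -0.06 by embryo. Their part in the Apoe values was not tested. Of 12 blood and macrophage markers 0 were tested, and Ptprc, C1qa and Adgre1 had no read in any library. The 14 yolk sac markers had log2 ratios of -0.93, 0.20, -0.02 and -0.41 in the same order of embryos, and their part in the Apoe values was not tested either.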

How the data were processed

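Polyadenylated RNA of the 8 heart field pieces was sequenced by the authors as paired reads, and the deposited values are raw counts per gene, not normalized. According to the methods, the authors used Hisat2 to align reads to GRCm38, dropped duplicates and counted reads in genes with featureCounts of Subread. Their versions, and whether counting used strand, are not given in the sources used here. Removing duplicates can compress the most abundant short transcripts.

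From the counts, the 9744 genes holding 20 or more DESeq2-normalized counts in 4 or more libraries were fitted with edgeR 4.0.16 in R 4.3.3 (TMM, quasi-likelihood test, embryo as block), with Benjamini-Hochberg adjustment over all genes. The threshold of the study was a fold of 1.2 or more and an unadjusted p no higher than 0.05. The study listed genes that passed it by either limma-voom, DESeq2 or edgeR, while the counts here are by edgeR alone unless stated. The libraries are paired because they come from 1 animal. Whether each embryo is from another litter is not given, so p-values cover these 4 embryos. Embryos were compared by the F test of the embryo terms. Normalized counts use DESeq2 1.42.0 size factors, CPM uses TMM, left to right ratios add 0.5 CPM and folds between pooled embryos none unless stated, and lengths and symbols are from GENCODE vM21. Intervals are exact at 95% and cover counting error only. limma 3.58.1 and DESeq2 served as alternatives, and the fits were tested on simulated data. No member shares exons with another gene or has a near-identical copy.

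The members and lists were chosen with earlier results of these data known. Named genes are the members, the 5 genes most like Apoe, list genes past the threshold and the 2 with the highest level in each pathway list, of which 1 is not reported here. Others were named after their values were seen.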

Additional observations from a re-analysis of the deposited data

Results flagged for a closer look

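Over 27 groups of 4 values, each side or ratio of each member, 2 held a value far from the other 3 by Dixon's criterion, where chance would give 1.35. On the right, Apoa2 was at 0 normalized counts in L49-3 and at 2.48, 2.54 and 2.67 in the other embryos, all from 5 reads or fewer. The log2 ratio of left to right of Vldlr was 0.46 in L43-5 and -0.33, -0.30 and -0.25 in the other embryos.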

How the results depend on the processing

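With the embryo as a block, 1 of the 6 members other than Apoe passed the threshold of the study between the sides (Apoa1), and with no replicate block 0 did. The count was also 0 with library size alone, with library size without the 50 highest genes, with at least 10 counts in every library (4 tested), with DESeq2 and with limma-voom, and it was 0 to 3 on leaving out 1 embryo. Of the 145 other list genes tested 4 passed, as 297 of all 9744 tested genes did. The number was 28 of 227 with no filter (687 of 23873 over all genes) and 0 with DESeq2 (59 over all genes). With limma-voom it was 7 (301 over all genes), and on leaving out 1 embryo it was 8 to 17 (291 to 388 over all genes). Of the 6 members, 2 had a positive log2 fold change (Lrp1 and Lrp2), against 1 to 4 on leaving out 1 embryo. Between embryos edgeR called 0 of 7 members, against 5 with no filter (Apoa1, Apob, Apom, Lrp1 and Vldlr, where 641 of 23873 genes were called, against 17 of 9744 with the filter), 1 with DESeq2 and 0 to 2 on leaving out 1 embryo. The log2 fold change changed sign for Apob (0.32) and Apom (0.021) without L29-3 and for Lrp2 without L43-5 (-0.0060). Without L29-3, Lrp2 (0.29) and Lrp1 (0.28) passed the threshold. Without L43-5, Apob (-1.08) and Apom (-1.28) passed the threshold, and without L49-3 Apoa1 (-0.79) did not. The cause of these changes was not tested. The directions of Lrp1, Apoa1 and Vldlr, like that of Apoe, and the order of levels per length up to Apom were the same under every alternative run for them. The value of Vldlr came as near to 0 as -0.01 and that of Apoa1 as -0.12.

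The counts of L49-3 are the lowest of the embryos, so values near 0 there rest on few reads. With 4 embryos, leaving out 1 can change a call, as leaving out L29-3 or L49-3 did for Apoa1.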
